A study of Mus musculus with 14 samples.

Results

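The phagocyte NADPH oxidase subunits described here are Ncf1, Ncf4, Cyba and Cybb, 4 genes taken by symbol from the 22295 rows of the deposited gene table. Each symbol matched 1 row, and all 4 were among the 9627 genes tested. Mouse B cells were purified from spleen with a kit that removes the other cells, and polyadenylated RNA was sequenced after 96 h of culture in lipopolysaccharide (LPS, a bacterial cell wall component) and interleukin 4 (IL-4). The 14 libraries came from mice without miR-155, labelled miR-155[-/-] (miR-155_KO, n = 5), from mice labelled PU.1[155-/155-] (PU.1_KI, n = 5) and from wild type mice (WT, n = 4). PU.1[155-/155-] is taken here, from knowledge of the study and not from the labels, to be a knock-in in which the miR-155 site of the gene for the transcription factor PU.1 is mutated and miR-155 itself is intact. All 3 genotypes received the same stimulus, and no unstimulated sample was analysed here, so each comparison is between activated B cells. The labels give neither strain, age nor sex, and do not say how many animals went into a library. The design text calls the replicates biological.

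The phagocyte NADPH oxidase moves electrons from NADPH across a membrane onto oxygen and so makes superoxide. Its membrane core is a heterodimer of gp91phox, the catalytic subunit encoded by Cybb, and p22phox, encoded by Cyba, and each of the pair stabilises the other. On activation a cytosolic complex that includes p47phox (Ncf1) and p40phox (Ncf4) joins the core together with a Rac GTPase. The oxidase is best known from neutrophils and macrophages, and B cells also express it. Several of its genes are known to be activated by PU.1 in myeloid cells, and PU.1 messenger RNA is a known target of miR-155.

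The first sequences shown are the microRNA and its site in the messenger RNA of PU.1. Whether any subunit changed through this site was not tested. The gene of PU.1 is Spi1, given in the deposited values under its older symbol Sfpi1. The mature microRNA (RefSeq, GRCm38.p6, chr16:84714143-84714165, plus strand) is shown with its seed, bases 2 to 8, in capitals. The Spi1 site lies in the 3′ UTR (GENCODE M21, GRCm38, chr2:91115426-91115455, plus strand), and its capitals mark the 8-base site AGCATTAA, of which 7 bases are complementary to the seed and the last is an A.
mmu-miR-155-5p: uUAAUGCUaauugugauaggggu
Spi1 site: ccgccggccatAGCATTAAcccgtcgcccg

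No such match, nor the 7-base matches AGCATTA and, shifted by a base, GCATTAA, was found in the annotated 3′ UTRs of Ncf1 (1490 bases), Ncf4 (189), Cyba (102) or Cybb (2965). Among 20698 annotated mouse 3′ UTRs, 2.8% held AGCATTAA and 11.7% held at least 1 of these words. The absence of the letters says nothing about other kinds of site.

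Promoter sequences, from 250 bases before to 50 bases after the start of the gene, were in the RefSeq table (GRCm38.p6) for 3 of the 4 subunits. They are shown because Ncf1 and Cybb were both higher in both mutants while Cyba passed the threshold in no comparison. The 2 words of the ETS family to which PU.1 belongs that were searched on both strands are GAGGAA, read as TTCCTC on the opposite strand, and GGAAGT, read as ACTTCC on the opposite strand. The last 4 bases of the first are the first 4 of the second, so the words can overlap. Capitals mark a match. The windows are chr5:134229576-134229875 for Ncf1, chr8:122432891-122433190 for Cyba and chrX:9469275-9469574 for Cybb, all on the minus strand.
Ncf1: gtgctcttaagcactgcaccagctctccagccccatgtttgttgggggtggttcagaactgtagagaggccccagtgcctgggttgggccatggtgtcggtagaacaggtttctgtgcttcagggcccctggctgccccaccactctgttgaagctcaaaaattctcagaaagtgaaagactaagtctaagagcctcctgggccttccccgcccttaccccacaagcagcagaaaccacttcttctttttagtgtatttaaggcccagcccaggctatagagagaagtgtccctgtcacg
Cyba: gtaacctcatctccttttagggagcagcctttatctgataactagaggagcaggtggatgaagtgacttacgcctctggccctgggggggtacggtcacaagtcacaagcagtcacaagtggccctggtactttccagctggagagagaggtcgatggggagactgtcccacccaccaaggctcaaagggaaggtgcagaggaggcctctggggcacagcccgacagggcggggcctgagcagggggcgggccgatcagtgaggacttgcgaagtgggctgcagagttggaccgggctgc
Cybb: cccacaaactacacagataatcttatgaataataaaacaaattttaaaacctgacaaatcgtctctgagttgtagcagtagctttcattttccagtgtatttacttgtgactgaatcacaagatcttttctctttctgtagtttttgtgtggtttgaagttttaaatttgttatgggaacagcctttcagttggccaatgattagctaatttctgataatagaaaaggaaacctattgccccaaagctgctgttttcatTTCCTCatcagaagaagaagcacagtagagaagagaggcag

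The only match among them was TTCCTC in Cybb, which begins at base 10 after the start. Of 32851 mouse promoters in that table, 28.3% held GAGGAA on either strand, 23.8% held GGAAGT and 43.4% held at least 1 of the words. A match of such short words is a description of the letters, not evidence of binding, and only these windows were searched.

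The files give RPKM, reads per kilobase of gene per 1e6 reads, a unit that allows levels of different genes to be compared. Depth recovered from the steps between low values was between 31.4 and 52.5 M reads per library (M for 1e6). At that depth the subunits had from 390 reads per kilobase (Ncf4, lowest library) to 10980 (Cyba, highest library). How counting error compares with the spread between libraries was not tested. The library miR-155_KO_5 stood apart from the rest of its genotype on principal component 1 (66.1% of the variance), at 19.8 with the others between 24.2 and 27.7. On that component WT_1 was at -15.4, with the other WT libraries between -18.2 and -18.1. WT_1 stood further apart on principal component 2 (16.2% of the variance), at 19.0 with the other WT libraries between 7.34 and 10.2. The RPKM values were tested with limma on log2(RPKM + 0.5), and genes with a Benjamini-Hochberg adjusted p under 0.05 over all 9627 genes were called. Every adjusted p below that names no other test is from limma, and a log2 fold change is on that scale with its standard error (SE).

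All 4 subunits were expressed in all 14 libraries, and their order of level was the same in each, with Cyba above Ncf1, Ncf1 above Cybb and Cybb above Ncf4. Among the 9627 tested genes, the mean level of Cyba was at percentile 98.9 in miR-155_KO, 98.8 in PU.1_KI and 98.8 in WT. Ncf4, the least abundant, was at percentile 67.8 in miR-155_KO, 77.4 in PU.1_KI and 81.6 in WT. In bulk RNA, fewer cells expressing a gene and less RNA per cell cannot be told apart, and this holds for every level below.

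**Figure D1:**
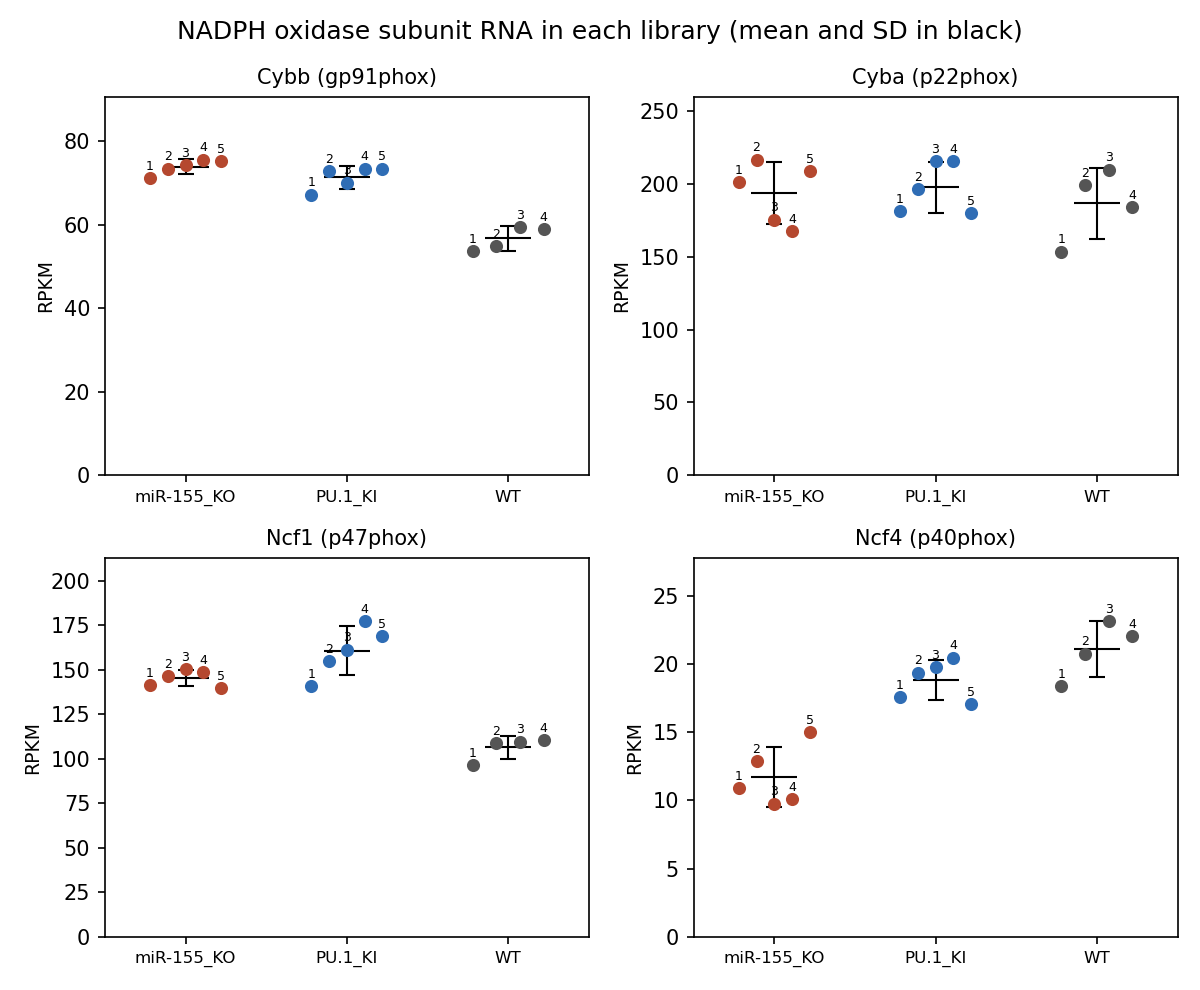
RPKM of Cybb, Cyba, Ncf1 and Ncf4 in each library, with a panel per gene and the genotypes miR-155_KO, PU.1_KI and WT along the x axis. Points are libraries and the bar and whiskers are the mean and SD; the miR-155_KO points of Ncf4 lie between 9.77 and 15.0 RPKM, below all others in that panel.

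Both mutants had more Cybb and Ncf1 messenger RNA than WT, and miR-155_KO had less Ncf4 than either of the other genotypes. In PU.1_KI against WT, 2 of the 4 subunits were called higher and none lower, where 23.7% of all tested genes were called higher, 4.03% lower and 27.7% in either direction. That split moved with scaling, with 2279 genes higher and 388 lower as deposited, 1677 and 1498 after median-of-ratios scaling, and 1520 and 1549 after quantile normalization. For miR-155_KO against PU.1_KI the same counts were 1725 and 4467, 2736 and 3370, and 2831 and 3216. In miR-155_KO against WT, 2 were called higher and 1 lower, where 27.2% of all tested genes were called higher, 35.3% lower and 62.5% in either direction. In miR-155_KO against PU.1_KI, 1 was called lower and none higher, where 17.9% of all tested genes were called higher, 46.4% lower and 64.3% in either direction. With calls this common, especially in comparisons with miR-155_KO, a count over 4 genes says little about the set, and the values of each gene follow. The median log2 fold change of the 4 was 0.21 for PU.1_KI against WT (0.08 over all tested genes), 0.22 for miR-155_KO against WT (-0.05 over all) and -0.09 for miR-155_KO against PU.1_KI (-0.13 over all). The comparisons of each mutant with WT share the WT libraries.

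**Figure D2:**
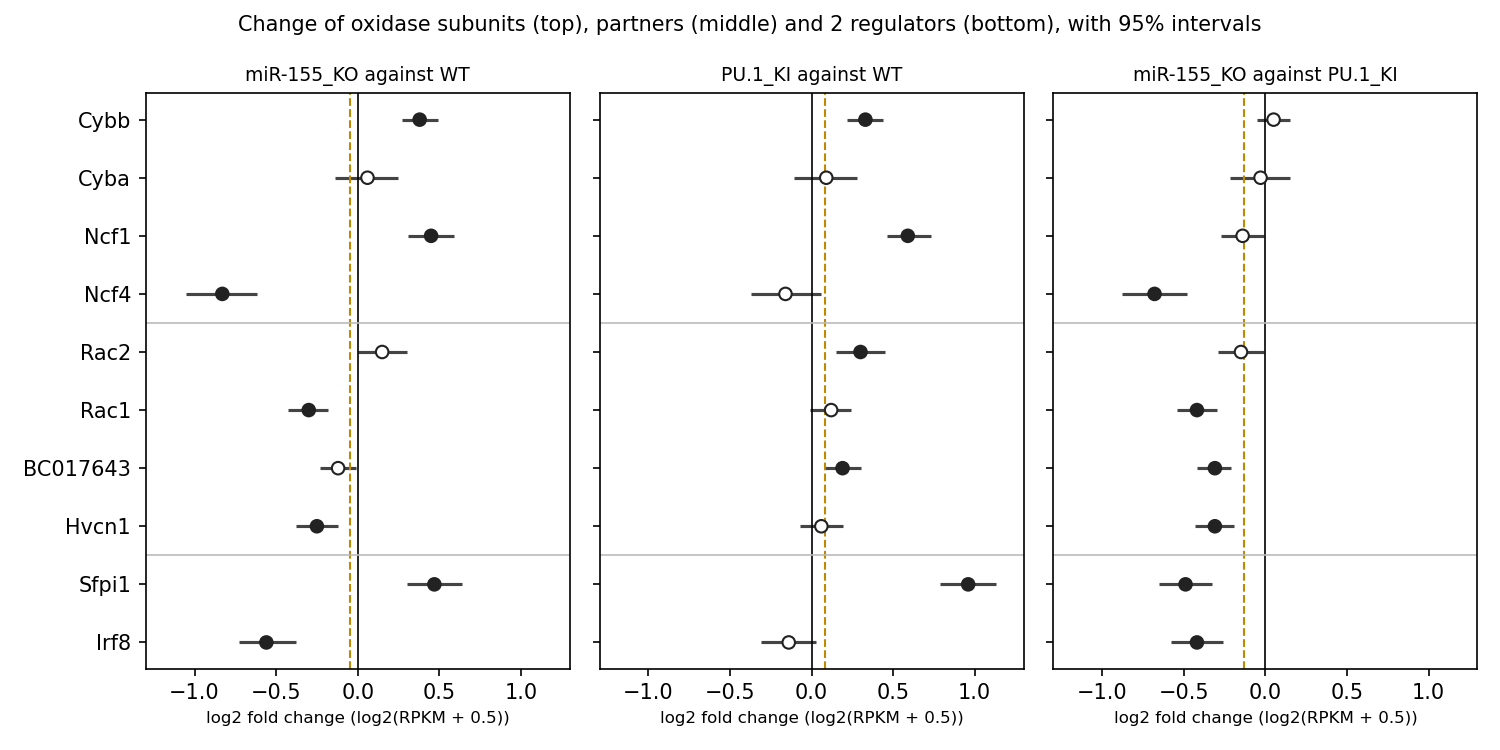
Log2 fold change with its 95% interval (x axis) of the 4 subunits, 4 partners and 2 regulators (rows) in the 3 comparisons (panels); filled points have an adjusted p under 0.05, and the dashed line is the median of all tested genes. Among the subunits, Cybb and Ncf1 lie above 0 in both comparisons with WT, and Ncf4 lies below 0 in both comparisons of miR-155_KO.

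Cybb, the electron-carrying subunit of the membrane core, was higher in both mutants. Its row (ENSMUSG00000015340) spans chrX:9012378-9064897 on the minus strand of NCBIM37. The miR-155_KO libraries had 71.1, 73.4, 74.3, 75.6 and 75.3 RPKM. The PU.1_KI libraries had 67.2, 72.8, 70.1, 73.4 and 73.4 RPKM, and the WT libraries 53.6, 54.8, 59.5 and 59.0 RPKM. All 10 mutant libraries lay above all 4 WT libraries, and as deposited the mutants overlapped each other. Means were 73.9 ± 1.81 RPKM in miR-155_KO, 71.4 ± 2.71 in PU.1_KI (SD, n = 5 each) and 56.7 ± 2.96 in WT (SD, n = 4). The log2 fold change was 0.38 ± 0.05 for miR-155_KO against WT (adjusted p = 3.84e-06) and 0.33 ± 0.05 for PU.1_KI against WT (adjusted p = 9.81e-05). Between the mutants it was 0.05 ± 0.05 (adjusted p = 0.372, 95% interval -0.05 to 0.15). That last value depended on scaling: it was 0.16 (adjusted p = 0.000407) after median-of-ratios scaling and 0.24 (adjusted p = 3.6e-05) after quantile normalization. The median of all tested genes in that comparison was -0.13 on the log2 scale as deposited, -0.03 after median-of-ratios scaling and -0.02 after quantile normalization. Cybb is X-linked, and the sex of the mice is not among the labels.

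Cyba, the partner that stabilises Cybb protein, was the most abundant subunit and was not called in any comparison. Its row (ENSMUSG00000006519) is at chr8:124948672-124956840 on the minus strand. It had 201.0, 216.6, 175.4, 167.6 and 208.7 RPKM in the miR-155_KO libraries. In PU.1_KI it had 181.3, 196.4, 215.7, 215.5 and 179.7 RPKM, and in WT 153.4, 199.3, 209.7 and 184.0 RPKM. The 3 genotypes overlapped. The log2 difference was 0.06 ± 0.09 for miR-155_KO against WT (adjusted p = 0.61, 95% interval -0.14 to 0.25) and 0.09 ± 0.09 for PU.1_KI against WT (adjusted p = 0.522, -0.11 to 0.28). Between the mutants it was -0.03 ± 0.09 (adjusted p = 0.773, -0.22 to 0.15). These intervals span changes in either direction. The sign turned for miR-155_KO against WT without WT_1 (-0.03), for PU.1_KI against WT after quantile normalization (-0.02), and between the mutants after median-of-ratios scaling (0.08), quantile normalization (0.12) and without miR-155_KO_4 (0.02). A long row on the opposite strand, Gm20388, overlaps Cyba in the table. It averaged 11.0 RPKM in miR-155_KO, 9.91 in PU.1_KI and 10.1 in WT, and no source used here gives the strand setting of the counting, so reads of the pair cannot be told apart.

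Ncf1, the organiser that is phosphorylated on activation and carries the cytosolic complex to the membrane, was higher in both mutants. Its row (ENSMUSG00000015950) is at chr5:134696130-134705495 on the minus strand. The miR-155_KO libraries had 141.3, 146.2, 150.1, 148.6 and 139.5 RPKM. PU.1_KI libraries had 140.9, 154.9, 161.3, 177.4 and 168.8 RPKM, and WT libraries 96.3, 108.7, 109.5 and 110.5 RPKM. Every mutant library lay above every WT library. Means were 145.1 ± 4.6 RPKM in miR-155_KO, 160.7 ± 13.9 in PU.1_KI (SD, n = 5 each) and 106.2 ± 6.67 in WT (SD, n = 4). The log2 fold change was 0.45 ± 0.07 for miR-155_KO against WT (adjusted p = 8.05e-06) and 0.59 ± 0.07 for PU.1_KI against WT (adjusted p = 1.54e-06), a 1.51-fold higher level. Between the mutants it was -0.14 ± 0.06 (adjusted p = 0.0511), with overlapping libraries. The threshold was passed between the mutants without WT_1 (-0.14, adjusted p = 0.0367) and without PU.1_KI_1 (-0.19, adjusted p = 0.00735), and the value was 0.02 after quantile normalization.

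Ncf4, whose PX domain binds the phosphoinositide of phagosome membranes, fell in miR-155_KO, opposite in direction to Cybb and Ncf1. Its row (ENSMUSG00000071715) is at chr15:78075231-78093010 on the plus strand. It had 10.9, 12.9, 9.77, 10.1 and 15.0 RPKM in the miR-155_KO libraries. In PU.1_KI it had 17.6, 19.4, 19.8, 20.5 and 17.1 RPKM, and in WT 18.4, 20.8, 23.2 and 22.1 RPKM. All 5 miR-155_KO libraries lay below every other library, and as deposited PU.1_KI overlapped WT. Means were 11.7 ± 2.2 RPKM in miR-155_KO, 18.9 ± 1.49 in PU.1_KI (SD, n = 5 each) and 21.1 ± 2.07 in WT (SD, n = 4). The log2 fold change was -0.83 ± 0.10 for miR-155_KO against WT (adjusted p = 8.66e-07) and -0.68 ± 0.10 for miR-155_KO against PU.1_KI (adjusted p = 6.25e-06). For PU.1_KI against WT it was -0.16 ± 0.10 (adjusted p = 0.274, 95% interval -0.37 to 0.06), and it passed the threshold at -0.24 after median-of-ratios scaling (adjusted p = 0.0464) and after quantile normalization (adjusted p = 0.0443).

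Counted as groups that do not overlap in the RPKM as deposited, 2 of the 4 subunits separated in PU.1_KI against WT, 3 in miR-155_KO against WT and 1 in miR-155_KO against PU.1_KI. Over all tested genes, 22.1% separated in PU.1_KI against WT, 48.4% in miR-155_KO against WT and 43.1% in miR-155_KO against PU.1_KI. After median-of-ratios scaling, Ncf4 also separated between PU.1_KI (16.2 to 18.9) and WT (19.7 to 23.0). Cybb then separated between miR-155_KO (73.2 to 78.8) and PU.1_KI (65.3 to 70.9). The shares of all tested genes were counted only as deposited.

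The balance between subunits was measured as the ratio of RPKM within a library, which does not depend on library scaling. Ncf1 to Ncf4 was 12.7 ± 2.5 in miR-155_KO, 8.53 ± 0.81 in PU.1_KI (SD, n = 5 each) and 5.04 ± 0.24 in WT (SD, n = 4). The mutants did not overlap WT, while the highest PU.1_KI library, at 9.9, lay above the lowest miR-155_KO library, miR-155_KO_5 at 9.28. The log2 ratio differed by 1.31 for miR-155_KO against WT, by 0.75 for PU.1_KI against WT and by 0.56 for miR-155_KO against PU.1_KI, each with a two-sided exact permutation p of 0.0159 and an adjusted p of 0.0317 over the family of 6 ratio tests. Cybb to Cyba was 0.386 ± 0.049 in miR-155_KO, 0.363 ± 0.032 in PU.1_KI and 0.307 ± 0.034 in WT. Its log2 ratio differed by 0.33 for miR-155_KO against WT (exact permutation p = 0.0317, adjusted 0.0476), by 0.24 for PU.1_KI against WT (exact permutation p = 0.0635, adjusted 0.0762) and by 0.08 for miR-155_KO against PU.1_KI (exact permutation p = 0.413). The smallest exact p possible is 0.0159 with 4 libraries against 5 and 0.00794 with 5 against 5.

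For Ncf1 to Ncf4 in both comparisons with WT, the exact permutation p was the smallest the design allows. It was above the smallest for Ncf1 to Ncf4 between the mutants and for Cybb to Cyba in miR-155_KO against WT. Leaving out a library raises the smallest exact p, to 0.0357 with 3 libraries against 5 and to 0.0286 with 4 against 4. Many of the calls then ended, without a turn of sign. For Ncf1 to Ncf4, the adjusted p was 0.0714 for PU.1_KI against WT without WT_2, WT_3 or WT_4, with log2 differences of 0.77, 0.72 and 0.75. For miR-155_KO against WT it was between 0.0571 and 0.0714 without WT_2, WT_3, WT_4, miR-155_KO_1, miR-155_KO_3, miR-155_KO_4 or miR-155_KO_5, with differences between 1.24 and 1.42. For miR-155_KO against PU.1_KI it was 0.0635 without miR-155_KO_1, miR-155_KO_3 or miR-155_KO_4, with differences of 0.55, 0.49 and 0.50. For Cybb to Cyba in miR-155_KO against WT, the call ended without WT_2, WT_3 or WT_4 (adjusted p 0.107) and without miR-155_KO_1, miR-155_KO_3, miR-155_KO_4 or miR-155_KO_5 (adjusted p 0.0762), with differences between 0.27 and 0.35. The Cybb to Cyba ratio passed the threshold for PU.1_KI against WT without WT_1 (0.31, adjusted p = 0.0429).

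**Figure D3:**
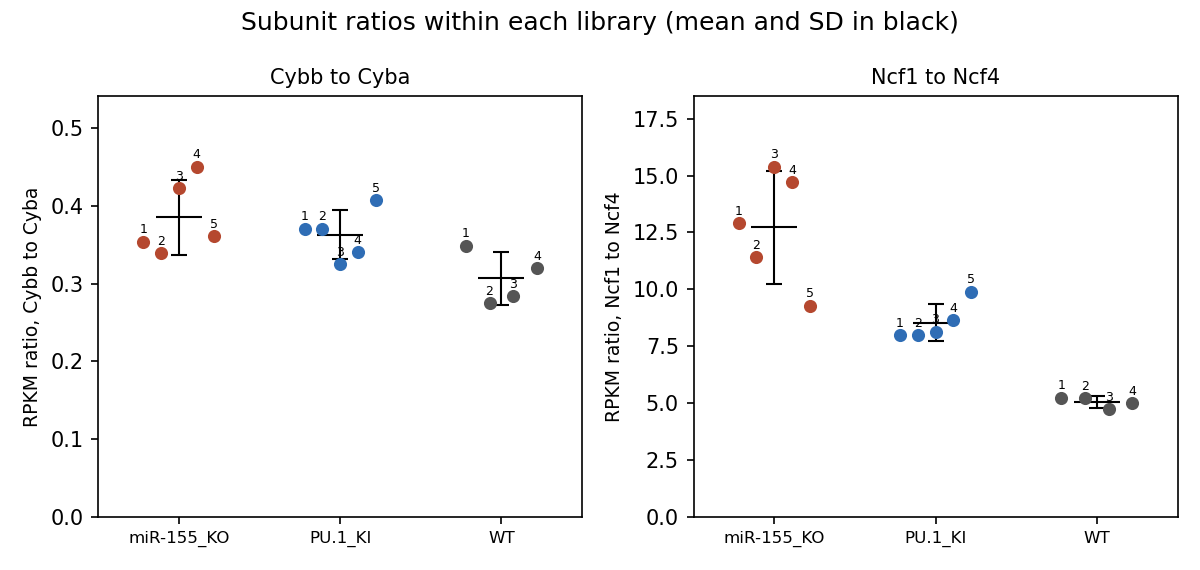
Ratio of Ncf1 to Ncf4 and of Cybb to Cyba (y axis, RPKM over RPKM, no unit) in each library, by genotype on the x axis, with mean and SD. The Ncf1 to Ncf4 ratio averages 12.7 in miR-155_KO, 8.53 in PU.1_KI and 5.04 in WT, where every mutant library is above every WT library, and the Cybb to Cyba ratios overlap.

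Libraries of a genotype differed together for some subunits. WT_1 was the lowest of the WT libraries for all 4, and it also had the lowest RPKM sum of all 14 libraries. After median-of-ratios scaling, WT_1 remained the lowest of the WT libraries for Ncf1 (103.1, with the others between 108.4 and 110.6), Ncf4 and Cyba, but not for Cybb (57.4, with WT_2 at 55.8). In miR-155_KO, libraries 3 and 4 were the lowest for both Ncf4 and Cyba, while their Ncf1 and Cybb values were not low. miR-155_KO_5 had the highest Ncf4 of its genotype, 0.38 above the mean on the log2 scale, and is the library nearest to the other genotypes on principal component 1. With WT_1 and miR-155_KO_5 both left out, a choice made after seeing the data, miR-155_KO against WT gave 0.35 for Cybb, 0.42 for Ncf1 and -0.99 for Ncf4, and PU.1_KI against WT gave 0.30 for Cybb and 0.55 for Ncf1, all still called.

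**Figure D4:**
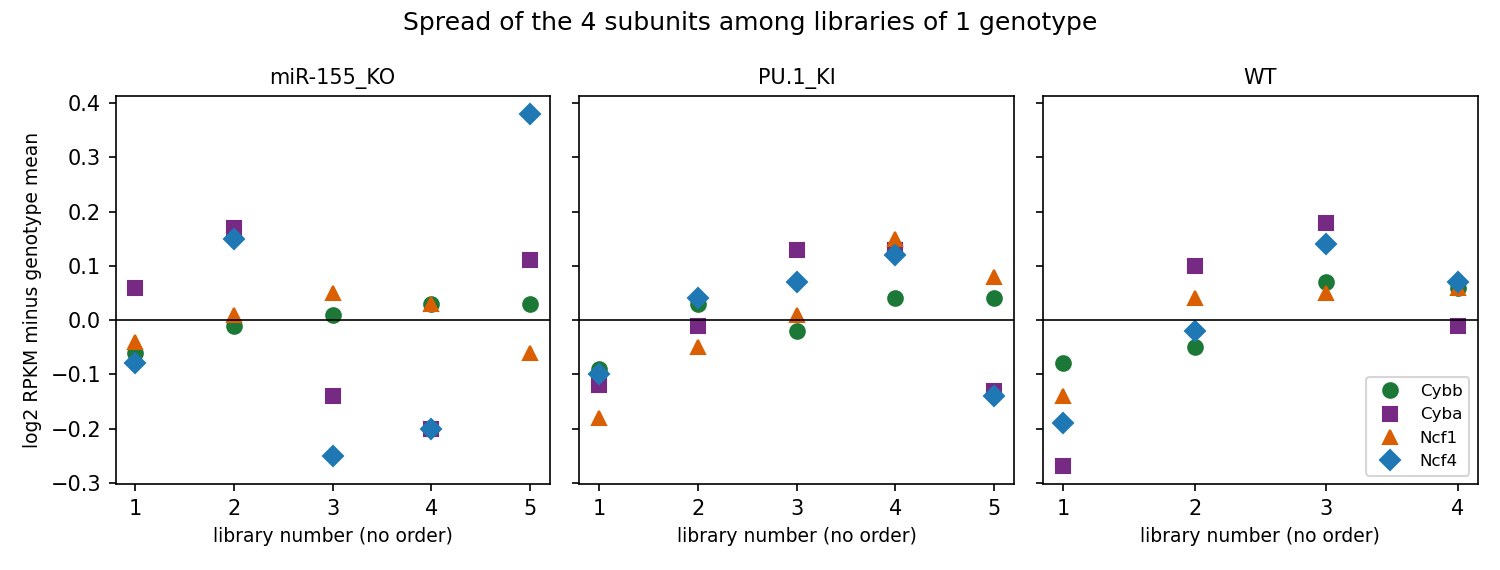
Deviation of each library from its genotype mean in log2 RPKM (y axis) for the 4 subunits, by library number on the x axis with a panel per genotype. WT_1 lies below 0 for all 4 subunits, and miR-155_KO_3 and miR-155_KO_4 lie below 0 for Ncf4 and Cyba.

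The Rac GTPases, which join the active oxidase, had different values from each other. Rac2, the main Rac of blood cells, was 159.9 ± 5.54 RPKM in miR-155_KO, 177.6 ± 16.4 in PU.1_KI and 144.2 ± 11.6 in WT. It rose in PU.1_KI against WT (0.30 ± 0.07, adjusted p = 0.00382). For miR-155_KO against WT it was at 0.15 ± 0.07 (adjusted p = 0.0696), a value that passed the threshold without WT_3 (0.19, adjusted p = 0.0489), without PU.1_KI_1 (0.15, adjusted p = 0.0395) and after median-of-ratios scaling (0.17, adjusted p = 0.0025). Rac1, found in most cell types, fell in miR-155_KO against WT (-0.30 ± 0.06, adjusted p = 0.000202) and against PU.1_KI (-0.42 ± 0.06, adjusted p = 3.17e-06). For PU.1_KI against WT, Rac1 was at 0.12 ± 0.06 (adjusted p = 0.157), or 0.15 without PU.1_KI_1 (adjusted p = 0.0427).

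Rap1a and Hvcn1 were lower in miR-155_KO than in WT. Rap1a, a small GTPase found bound to the membrane core, was 30.0 ± 1.55 RPKM in miR-155_KO, 35.8 ± 1.23 in PU.1_KI and 50.4 ± 1.97 in WT. Rap1a fell in miR-155_KO (-0.74 ± 0.05, adjusted p = 6.53e-10) and in PU.1_KI (-0.49 ± 0.05, adjusted p = 1.31e-06) against WT, with no overlap. Hvcn1, the proton channel that balances the charge moved by the oxidase, fell in miR-155_KO against WT (-0.25 ± 0.06, adjusted p = 0.00169) and against PU.1_KI (-0.31 ± 0.06, adjusted p = 0.00013). BC017643, the older name of Cybc1, whose product is needed for stable Cybb and Cyba protein, was 19.0 ± 0.286 RPKM in miR-155_KO, 23.7 ± 1.13 in PU.1_KI and 20.7 ± 1.21 in WT. It rose in PU.1_KI against WT (0.19 ± 0.05, adjusted p = 0.0103) and fell in miR-155_KO against PU.1_KI (-0.31 ± 0.05, adjusted p = 2.55e-05).

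Of 14 listed partners, 13 were tested. The counts of this list and of those that follow are read against the shares of all tested genes called in either direction, 27.7% in PU.1_KI against WT, 62.5% in miR-155_KO against WT and 64.3% in miR-155_KO against PU.1_KI. In PU.1_KI against WT, 6 rose and 1 fell (median log2 fold change 0.12), in miR-155_KO against WT, 3 rose and 5 fell (-0.12), and in miR-155_KO against PU.1_KI, 1 rose and 8 fell (-0.17). Vav3, an exchange factor for Rac, rose in miR-155_KO against WT (0.43 ± 0.07, adjusted p = 2.49e-05). Arhgdia, an inhibitor of GDP release from small GTPases, fell in miR-155_KO against WT (-0.42 ± 0.08, adjusted p = 8.97e-05) and, with Arhgdib (-0.46 ± 0.07), against PU.1_KI (-0.52 ± 0.07). With 8 of 13 partners called in miR-155_KO against WT, the list is near the 62.5% of all tested genes.

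Kinases and other genes that activate the oxidase numbered 18, of which 14 were tested. In PU.1_KI against WT, 3 rose and none fell (median 0.10), namely Prkcb, a protein kinase C that phosphorylates p47phox (0.27 ± 0.06, adjusted p = 0.00192), Mapk3 (0.32 ± 0.06, adjusted p = 0.000991) and Pik3cd (0.22 ± 0.06, adjusted p = 0.0145, but 0.16 with adjusted p = 0.0761 without WT_1). In miR-155_KO against WT, 4 rose and 4 fell (median -0.02), so 8 of 14 were called beside 62.5% of all tested genes. Prkca, another protein kinase C, was 9.23 ± 0.411 RPKM in miR-155_KO, 6.01 ± 0.314 in PU.1_KI and 5.45 ± 0.19 in WT, a change of 0.71 ± 0.05 against WT (adjusted p = 1.12e-09). Prkcb rose by 0.28 ± 0.06 (adjusted p = 0.00044) and Akt1 fell by 0.35 ± 0.08 (adjusted p = 0.000977) in the same comparison. In miR-155_KO against PU.1_KI, 2 rose and 6 fell (median -0.10), with Pik3cg at 0.78 ± 0.14 (adjusted p = 0.000131).

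Genes that supply NADPH, the oxidase's electron donor, numbered 13, of which 12 were tested. In PU.1_KI against WT, 2 rose and none fell (median 0.08). They were Idh2, the mitochondrial isocitrate dehydrogenase (0.22 ± 0.06, adjusted p = 0.015, but 0.18 with adjusted p = 0.0637 without WT_1), and Pgls (0.26 ± 0.09, adjusted p = 0.0414). The Pgls call ended without WT_1, WT_4, PU.1_KI_3, PU.1_KI_4, PU.1_KI_5 or miR-155_KO_1, each on its own (adjusted p between 0.0514 and 0.178), and after median-of-ratios scaling (0.18, adjusted p = 0.0864) or quantile normalization (0.17, adjusted p = 0.0787). In miR-155_KO against WT, 2 rose and 4 fell (median 0.00), so 6 of 12 were called beside 62.5% of all tested genes, with Idh2 rising (0.51 ± 0.06, adjusted p = 1.08e-06) and Me2, a mitochondrial malic enzyme (-0.58 ± 0.07, adjusted p = 4.36e-07), and Rpia, of the pentose phosphate pathway (-0.49 ± 0.06, adjusted p = 6.16e-07), falling. In miR-155_KO against PU.1_KI, 2 rose and 6 fell (median -0.16), with Me2 at -0.51 ± 0.06, Rpia at -0.35 ± 0.05 and Rpe at -0.27 ± 0.05.

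Genes that remove reactive oxygen showed the largest single changes of these lists. Of 22, 21 were tested, and in miR-155_KO against WT, 8 rose and 4 fell (median -0.02), so 12 of 21 were called beside 62.5% of all tested genes. Gsr, glutathione reductase, was 20.0 ± 0.811 RPKM in miR-155_KO, 7.13 ± 0.95 in PU.1_KI and 5.16 ± 0.458 in WT, a change of 1.86 ± 0.08 for miR-155_KO against WT (adjusted p = 2.63e-13) and of 0.43 ± 0.08 for PU.1_KI against WT (adjusted p = 0.000417). Nfe2l2, the factor that turns on many antioxidant genes, was 12.7 ± 0.895 RPKM in miR-155_KO, 4.48 ± 0.229 in PU.1_KI and 4.16 ± 0.199 in WT, a change of 1.41 ± 0.05 for miR-155_KO against PU.1_KI (adjusted p = 1.35e-13), and it also rose against WT (adjusted p = 8.85e-14). Cat, catalase, rose in miR-155_KO (0.72 ± 0.06, adjusted p = 5.97e-09) and in PU.1_KI (0.27 ± 0.06, adjusted p = 0.00212) against WT. In PU.1_KI against WT, 4 rose and none fell (median 0.09), with Gpx1 at 0.42 ± 0.09 (adjusted p = 0.00139). In miR-155_KO against PU.1_KI, 7 rose and 7 fell (median 0.01), with Nqo1 at 1.62 ± 0.13 (adjusted p = 3.89e-09) and Gsr at 1.43 ± 0.07. Nqo1 had between 1.18 and 2.84 RPKM in miR-155_KO, 0.169 and 0.246 in PU.1_KI and 0.19 and 0.382 in WT. It reached the RPKM of 1 needed for testing only in miR-155_KO, which favours a call in that direction.

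Of 12 listed regulators of oxidase genes, 10 were tested. In PU.1_KI against WT, 5 rose and none fell (median 0.18), in miR-155_KO against WT, 3 rose and 4 fell (-0.05), and in miR-155_KO against PU.1_KI, 1 rose and 6 fell (-0.21). In miR-155_KO against WT, 7 of 10 were thus called, beside 62.5% of all tested genes. Sfpi1, the gene of PU.1, was 16.7 ± 1.11 RPKM in miR-155_KO, 23.7 ± 2.04 in PU.1_KI and 12.0 ± 1.54 in WT, so it rose in miR-155_KO (0.47 ± 0.08, adjusted p = 6.14e-05) and in PU.1_KI (0.96 ± 0.08, adjusted p = 5.85e-08) and was lower in miR-155_KO than in PU.1_KI (-0.49 ± 0.08, adjusted p = 1.91e-05). Irf8, a partner of PU.1, averaged 84.0 ± 5.96 RPKM in miR-155_KO, 112.5 ± 9.7 in PU.1_KI and 124.1 ± 15.1 in WT. It fell in miR-155_KO against WT (-0.56 ± 0.08, adjusted p = 8.87e-06) and was at -0.14 ± 0.08 in PU.1_KI against WT (adjusted p = 0.23, or 0.0201 after median-of-ratios scaling, at -0.23). Irf2 rose in PU.1_KI against WT (0.30 ± 0.07, adjusted p = 0.0027), and Cebpb rose in miR-155_KO against WT (1.03 ± 0.17, adjusted p = 3.21e-05). Cebpb had between 1.01 and 2.32 RPKM in miR-155_KO, 0.371 and 1.14 in PU.1_KI and 0.392 and 0.79 in WT. Without miR-155_KO it would not have reached the RPKM of 1 in 4 libraries needed for testing, which favours a call in that direction.

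**Figure D5:**
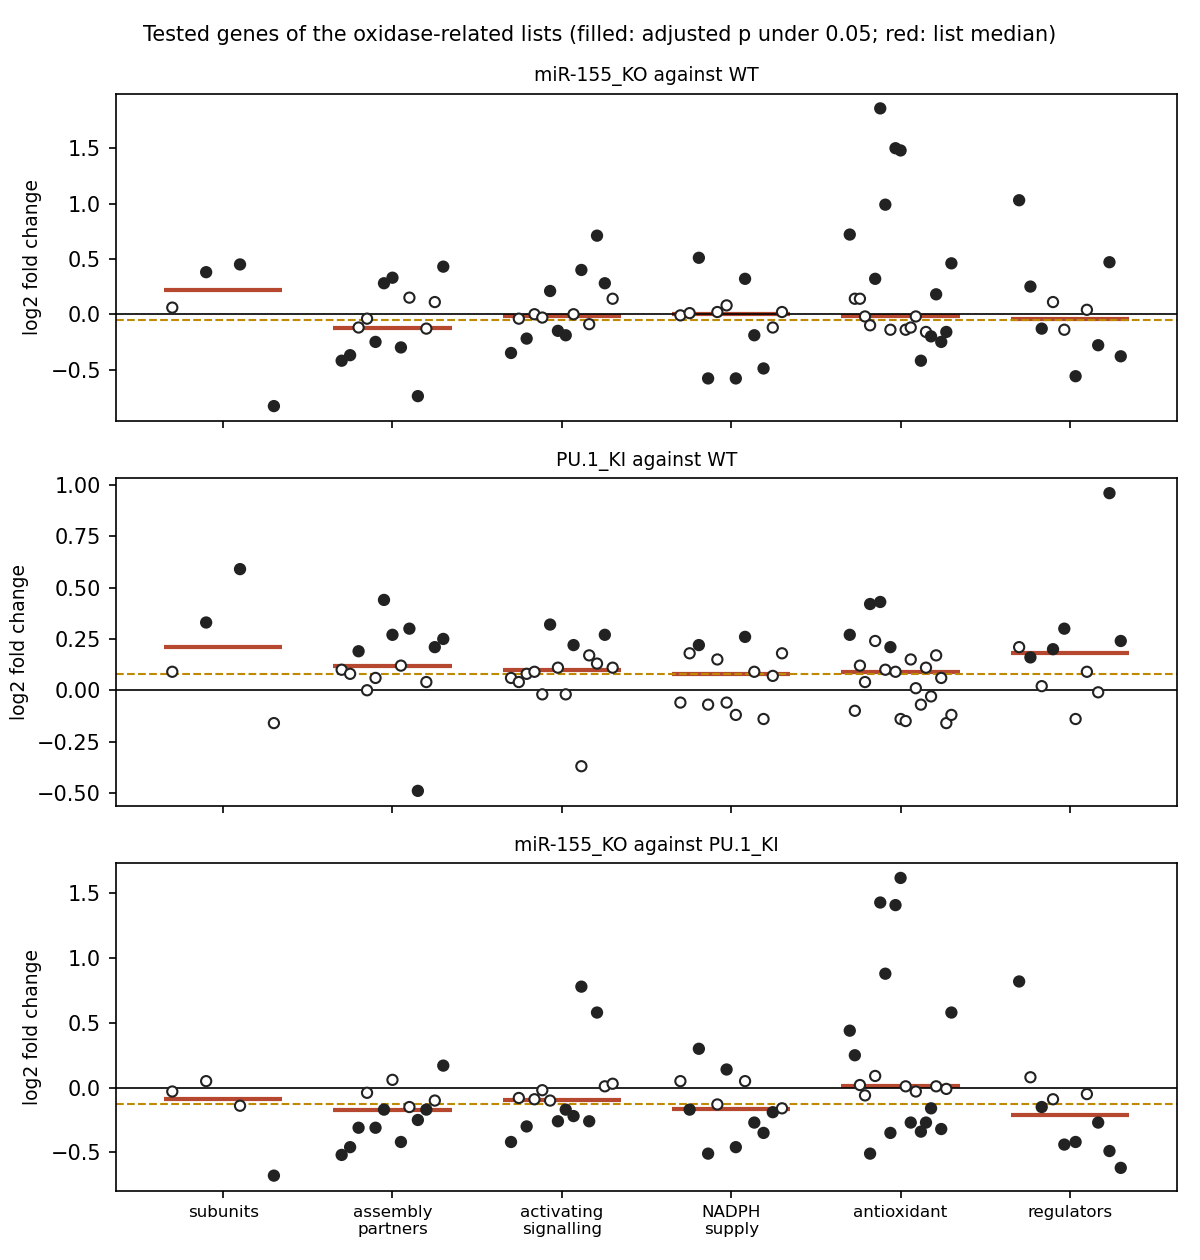
Log2 fold change (y axis) of each tested gene of the gene lists (x axis) in the 3 comparisons, with a point per gene (filled where the adjusted p is under 0.05), a red bar at the list's median and a dashed line at the median of all tested genes. The list medians lie between -0.21 and 0.22, and Gsr, at 1.86 in miR-155_KO against WT, is the highest point.

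The other NADPH oxidases were at or near 0. The 9 genes listed for them (other Nox and Duox genes and their partners) had a summed level between 0.15 and 0.335 RPKM per library, and none passed the filter. Since Cybb, Cyba, Ncf1 and Ncf4 are abundant in myeloid cells, markers of those cells are given beside them. All 8 B cell markers were tested, with Cd79a at 336.1 RPKM in miR-155_KO, 491.3 in PU.1_KI and 476.0 in WT. Of 15 macrophage markers, 2 passed the filter, and the summed level of the 15 was between 10.2 and 11.3 RPKM in miR-155_KO, 18.2 and 22.2 in PU.1_KI and 12.6 and 14.8 in WT. Cd68 rose in PU.1_KI against WT (0.64 ± 0.06, adjusted p = 1.41e-07) and fell in miR-155_KO against WT (-0.39 ± 0.06, adjusted p = 1.37e-05), and Mpeg1 did likewise (0.42 ± 0.08 with adjusted p = 0.000521, and -0.57 ± 0.08 with adjusted p = 4.08e-06), while C1qa and Vsig4 were at 0 in every library. Cd68 and Mpeg1 made up most of the macrophage sum. Emr1, which did not pass the filter, had 0.738 ± 0.0827 RPKM in miR-155_KO, 0.253 ± 0.0951 in PU.1_KI and 0.2 ± 0.0298 in WT, and miR-155_KO and WT did not overlap. Of 12 neutrophil markers, 1 passed the filter, Lcn2, which made up most of the sum with 1.52 RPKM in miR-155_KO, 1.73 in PU.1_KI and 0.73 in WT. Over the 12, the summed level was between 1.25 and 1.97 RPKM in miR-155_KO, 1.52 and 2.23 in PU.1_KI and 0.665 and 1.06 in WT, and S100a8, S100a9, Elane and Ly6g were at 0 in every library. The summed level of 7 dendritic cell markers was between 23.7 and 30.4 RPKM in miR-155_KO, 25.4 and 32.1 in PU.1_KI and 15.8 and 20.1 in WT, of which Flt3 made up 22.9, 26.0 and 15.8 RPKM on average in those genotypes. No T or NK cell marker of the 8 listed passed the filter, and their summed level was between 0.818 and 1.15 RPKM in miR-155_KO, 0.263 and 0.459 in PU.1_KI and 0.523 and 0.742 in WT. Of these, Cd8a was between 0.573 and 0.719 RPKM in miR-155_KO, 0.017 and 0.1 in PU.1_KI and 0.0145 and 0.0474 in WT. The summed level of 5 plasma cell markers was between 267 and 406 RPKM in miR-155_KO, 224 and 344 in PU.1_KI and 417 and 501 in WT, most of it Igj and Xbp1. Igj fell in miR-155_KO (-0.91, adjusted p = 0.000232) and in PU.1_KI (-1.12, adjusted p = 0.000124) against WT, and Xbp1 did likewise (-0.32 with adjusted p = 0.00114, and -0.35 with adjusted p = 0.00196). Of that list, Irf4 rose in miR-155_KO (0.66 ± 0.07, adjusted p = 2.35e-07) and in PU.1_KI (0.38 ± 0.07, adjusted p = 0.00066) against WT. Relative to WT, the summed macrophage markers were higher in PU.1_KI and lower in miR-155_KO, while the neutrophil and dendritic cell sums were higher, and the plasma cell sum lower, in both mutants. Their part in the results was not tested.

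The nearest tested genes on either side of each subunit were looked up after the values were seen, so genes that were not tested are skipped. The gaps ran from 656 bases (Mvd) to 166496 bases (Dynlt3). For Ncf4 they were Ift27, at a gap of 70693 bases, and Csf2rb2, at 19937 bases. In miR-155_KO against WT, Ift27 fell (-0.89 ± 0.10, adjusted p = 2.02e-07) and Csf2rb2 rose (1.40 ± 0.08, adjusted p = 3.1e-11). Csf2rb2 had 1.82 ± 0.245 RPKM in miR-155_KO, against 0.377 ± 0.0804 in WT. It reached the RPKM of 1 needed for testing only through mutant libraries, which favours a call of higher in either mutant against WT. Of the Cybb neighbours, Xk rose (0.55 ± 0.06, adjusted p = 2.7e-07) and Dynlt3 rose (0.22 ± 0.07, adjusted p = 0.0113). Around Cyba, Zc3h18 (-0.20 ± 0.07, adjusted p = 0.0125) and Mvd (-0.22 ± 0.07, adjusted p = 0.0155, 0.0551 without WT_3 and 0.127 after quantile normalization) fell. The same 8 neighbours, counting those of Ncf1, were also compared in PU.1_KI against WT. There Csf2rb2 rose (0.96 ± 0.08, adjusted p = 6.66e-08), Xk fell (-0.28 ± 0.06, adjusted p = 0.00213) and Mvd rose (0.30 ± 0.07, adjusted p = 0.00486). The other 5 were not called as deposited, with Ift27 at -0.25 (adjusted p = 0.0586), Zc3h18 at 0.06 (0.571), Dynlt3 at 0.05 (0.658), Gtf2i at -0.03 (0.754) and Gtf2ird2 at -0.10 (0.241). After median-of-ratios scaling, Ift27 (-0.34, adjusted p = 0.00703), Gtf2i (-0.12, adjusted p = 0.0263) and Gtf2ird2 (-0.18, adjusted p = 0.00992) were called lower, and the signs of Zc3h18 and Dynlt3 turned. Ift27 was also called without PU.1_KI_4, miR-155_KO_4 or miR-155_KO_5, each on its own (adjusted p between 0.0143 and 0.0439), and with only the 2 genotypes in the fit (adjusted p = 0.0174). The sign of Gtf2i turned without WT_4 (0.01). Around Ncf1, in miR-155_KO against WT, Gtf2i was at -0.02 ± 0.07 (adjusted p = 0.856) and Gtf2ird2 at -0.16 ± 0.06 (adjusted p = 0.036). The Gtf2ird2 call ended without WT_2, WT_3, miR-155_KO_1, miR-155_KO_2, miR-155_KO_3 or miR-155_KO_4, each on its own (adjusted p between 0.0537 and 0.144), and the sign of Gtf2i turned without WT_4 (0.03) and after quantile normalization (0.08).

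The genes whose profiles over the 14 libraries were most like those of the subunits, by the root mean square difference of centred log2(RPKM + 0.5) values, were Arid5a (0.048) and Rnf40 (0.054) for Ncf1, Prr5 (0.073) for Ncf4, Pias4 (0.049) and Fhl3 (0.052) for Cyba, and Eci2 (0.046) and Tk1 (0.048) for Cybb. The spread of the subunits themselves about their means was 0.257 for Ncf1, 0.398 for Ncf4, 0.147 for Cyba and 0.169 for Cybb, so the likeness is closest relative to that spread for Ncf1 and Ncf4.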

How the data were processed

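RPKM values were deposited by the authors in 1 table, with a row per gene and a column per library for 14 libraries of polyadenylated RNA (TruSeq mRNA kit, per the labels' protocols). Per the submitters' processing notes, Trim Galore, TopHat and the mouse build NCBIM37 were used. The sources used here do not give the read counter, annotation or strand setting, so reads of overlapping genes may be shared. RPKM cannot enter a count model. Genes that reached an RPKM of 1 in 4 or more libraries were tested with limma 3.58.1 (R 4.3.3) on log2(RPKM + 0.5), 1 mean per genotype over all libraries, empirical Bayes with an intensity trend, two-sided, with Benjamini-Hochberg adjustment over 9627 genes and a threshold of 0.05. The pseudocount understates changes of low genes. The fit was tested on simulated data. Depth was recovered from RPKM steps: 67.2% to 72.8% of low values fell within 0.01 reads of a whole number, so it is approximate. Ratios of subunits within a library were compared by exact permutation of libraries (scipy 1.17.1).

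The members and gene lists were chosen with earlier results of these data known. Named genes are the 4 subunits, a fixed set of partners, the 3 genes of each list with the smallest adjusted p, and the 5 genes most alike in profile, of which up to 2 are printed, with some genes not reported here; chromosomal neighbours, Gm20388, Cd79a, Cd68, Mpeg1, Emr1, Cd8a, Irf4, Igj and Xbp1 were added after their values were seen. RefSeq and GENCODE sequences are on GRCm38 and table positions on NCBIM37, and no coordinates were converted. The labels give neither sequencing pool nor culture day for a library, so these and genotype cannot be told apart. Replicates with the same number did not deviate together in every pair (correlations over 0.1 in 3 of 4 pairs of PU.1_KI and WT, and of mixed sign in the comparisons with miR-155_KO), so libraries were not paired. Alternatives tried were other pseudocounts, filters, scalings, a block, no trend and leaving out libraries.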

Additional observations from a re-analysis of the deposited data

Results flagged for a closer look

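Within a genotype, 6 of 144 groups of values screened (46 genes and 2 ratios) held a library far from the others by Dixon's criterion at 95%, and chance flags about 1 in 20 groups. Among the subunits, Ncf1 had 96.3 RPKM in WT_1, the lowest of the 4 WT libraries by a wide gap; without WT_1 its log2 fold changes against WT remained called. WT_1 had the lowest RPKM sum of the 14 libraries, and Ncf1 there was 103.1 after median-of-ratios scaling, with the other WT libraries between 108.4 and 110.6. WT_1 was also the low one for Pik3cd, at 34.4 RPKM. The other outlying values were Vav3 in PU.1_KI_5 (3.74 RPKM, highest), Mapk3 in PU.1_KI_1 (9.76 RPKM, lowest), Rpia in WT_4 (27.3 RPKM, highest) and Csf2rb2 in miR-155_KO_5 (2.24 RPKM, highest). What sets these libraries apart was not tested.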

How the results depend on the processing

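The changes of Cybb and Ncf1 in both mutants against WT, and of Ncf4 in miR-155_KO against WT and against PU.1_KI, kept direction and call under every alternative run. The counts of all genes called stayed within 1.5 times of those reported, but median-of-ratios scaling split the PU.1_KI against WT calls into 1677 higher and 1498 lower (2279 and 388 as deposited), and miR-155_KO against PU.1_KI into 2736 and 3370 (1725 and 4467). Quantile normalization gave 1520 and 1549, and 2831 and 3216. The cause was not tested.

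Ncf4 in PU.1_KI against WT passed the threshold at -0.24 with median-of-ratios scaling and with quantile normalization. Cyba turned sign in PU.1_KI against WT with quantile normalization (-0.02), in miR-155_KO against WT with WT_1 and miR-155_KO_5 both left out (-0.06, a choice made after seeing the data), and between the mutants with median-of-ratios scaling (0.08) and quantile normalization (0.12). Between the mutants, Ncf1 was 0.02 with quantile normalization, and Cybb passed the threshold at 0.16 and 0.24 with the 2 scalings. Gtf2i in miR-155_KO against WT turned to 0.08 with quantile normalization and 0.03 without WT_4. For PU.1_KI against WT, Zc3h18 turned to -0.03 and -0.04 with median-of-ratios scaling and quantile normalization, Dynlt3 to -0.04 with both and to -0.01 without PU.1_KI_5 (its highest without 1 library was 0.07), and Gtf2i to 0.01 without WT_4.

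With the replicate number as a block, Ncf1 between the mutants was -0.14 (adjusted p = 0.0164). Blocked, Cybb to Cyba in miR-155_KO against WT was 0.35, and Ncf1 to Ncf4 was 0.70 in PU.1_KI against WT, 1.42 in miR-155_KO against WT and 0.56 between the mutants, each with an adjusted p of 0.15; the smallest exact p is 0.125 with the 4 pairs of a comparison with WT and 0.0625 with the 5 pairs between the mutants. The numbers do not pair the libraries by the correlation of their deviations, between -0.387 and 0.466. With WT_1 and miR-155_KO_5 both left out, those 4 log2 ratios were 0.41, 0.77, 1.44 and 0.67, each no longer past the threshold (adjusted exact permutation p = 0.0686). In miR-155_KO against WT, the libraries then left are too few for an exact p under 0.05. The calls of that comparison could therefore not be kept.

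Leaving out 1 library gave these ranges, in the order PU.1_KI against WT, miR-155_KO against WT and miR-155_KO against PU.1_KI: genes called 1962 to 3126, 5546 to 6184 and 5734 to 6449, Ncf1 0.55 to 0.64, 0.40 to 0.47 and -0.19 to -0.11, Ncf4 -0.22 to -0.11, -0.93 to -0.78 and -0.77 to -0.62, Cyba -0.00 to 0.15, -0.03 to 0.12 and -0.07 to 0.02, Cybb 0.30 to 0.35, 0.35 to 0.40 and 0.03 to 0.06, Cybb to Cyba 0.19 to 0.31, 0.27 to 0.39 and 0.02 to 0.13, Ncf1 to Ncf4 0.70 to 0.78, 1.24 to 1.42 and 0.49 to 0.67. Cyba turned to -0.03 in miR-155_KO against WT without WT_1 and to 0.02 between the mutants without miR-155_KO_4.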
